A study of Mus musculus with 12 samples.

Results

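Open chromatin was examined at 36 genes for voltage-gated ion channels in mouse cortical neurons exposed to alpha-synuclein fibrils. The genes were 4 sodium channel alpha subunits, 3 sodium channel beta subunits, 8 calcium channel alpha1 subunits, 3 alpha2delta subunits, 4 calcium channel beta subunits, 13 potassium channel genes and Hcn2. Peaks of all 12 libraries of an assay for transposase-accessible chromatin (ATAC-seq) were merged into 1 region wherever they shared 1 bp or more. Regions were assigned to a channel gene when they lay in the gene body or up to 5 kb upstream of a start site in the annotation (GENCODE vM21, build GRCm38). This gave 1485 regions at the 36 genes, 0.563% of the 263785 regions of the series, and no region was shared by 2 of the genes.

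The neurons were dissected from wild-type C57BL/6 mouse cortex at embryonic day 18. All groups had 3 libraries, described as biological replicates and labelled as batch 1. In the study's methods a biological replicate was the culture from a single pregnancy, split at random over the groups, and which libraries share a pregnancy is not given in the labels. The PBS group received the vehicle, and the PFF group received preformed fibrils of human alpha-synuclein for 7 days. The PFF+MLi-2 group received fibrils for 7 days and, over the last 5 of them, the LRRK2 kinase inhibitor MLi-2. The PFF+Rab5 ASO group received fibrils for 7 days and, over the last 3 of them, antisense oligonucleotides (ASO) against Rab5a and Rab5b, GTPases of the early endosome. Values of these groups are given as with MLi-2 and with the ASO. In the free-text notes of these treated libraries PBS stands where PFF would be, while their titles, treatment fields and the design text name PFF, which was used here. The study's methods give DMSO as the control for MLi-2, and whether these PBS and PFF libraries received it is not given in the labels. For the ASO, a control oligonucleotide is not given in the sources used here.

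Voltage-gated channels open or close with the membrane potential and so set how a neuron fires. Sodium channel alpha subunits form the pore that carries the rising phase of the action potential, and their beta subunits adjust gating and surface density. Calcium channel alpha1 subunits form the calcium pore, which alpha2delta and beta subunits bring to the membrane. Potassium channels repolarise the neuron and limit repeated firing, and Hcn channels open on hyperpolarisation. Many of these genes are long, with most of their sequence in introns.

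The windows below are those the results turn on, each 201 bases long around the centre of a region and read from the forward strand of GRCm38. The Scn2a promoter at chr2:65668584-65668784 is shown because it was the highest promoter of the 36 genes. The Scn2a intron at chr2:65700712-65700912 had a peak in all 3 PFF+Rab5 ASO libraries and in no PFF library, and the AP-1 motif in it is in capitals. The Kcnma1 intron at chr14:23684543-23684743 had a peak in all 3 PFF libraries and in no PFF+MLi-2 or PFF+Rab5 ASO library. The Kcnh1 intron at chr1:192439518-192439718 had the largest rise in height rank of any channel gene region between PFF and PFF+Rab5 ASO. Of the 4 motifs searched, spelled out with the motif counts near the end, the windows without capitals held none.
Scn2a promoter: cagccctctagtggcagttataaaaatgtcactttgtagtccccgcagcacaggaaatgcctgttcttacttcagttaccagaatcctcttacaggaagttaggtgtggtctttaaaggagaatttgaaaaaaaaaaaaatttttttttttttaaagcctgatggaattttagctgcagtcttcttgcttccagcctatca
Scn2a intron: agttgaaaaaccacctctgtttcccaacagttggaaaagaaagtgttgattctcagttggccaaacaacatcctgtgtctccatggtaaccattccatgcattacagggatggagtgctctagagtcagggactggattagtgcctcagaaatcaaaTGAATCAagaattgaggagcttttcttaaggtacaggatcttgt
Kcnma1 intron: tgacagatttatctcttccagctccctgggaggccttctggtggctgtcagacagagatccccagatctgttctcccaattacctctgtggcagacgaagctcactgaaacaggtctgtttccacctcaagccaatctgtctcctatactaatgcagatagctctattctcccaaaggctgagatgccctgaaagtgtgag
Kcnh1 intron: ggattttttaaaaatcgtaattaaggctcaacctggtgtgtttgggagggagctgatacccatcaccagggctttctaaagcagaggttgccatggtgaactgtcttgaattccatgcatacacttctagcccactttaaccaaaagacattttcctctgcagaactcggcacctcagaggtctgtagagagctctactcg

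The peak lists held 137417 to 184717 peaks per library. The depth relative to the mean of the 12 libraries, read from the most frequent background value, was 0.912 to 0.976 in PBS, 0.775 to 0.919 in PFF, 0.957 to 1.03 with MLi-2 and 1.05 to 1.31 with the ASO. The PFF+Rab5 ASO libraries also had the narrowest peaks, with median widths of 112 to 124 bp against 127 to 139 bp in the other groups. At least 1 promoter region of all 6 neuronal markers (such as Rbfox3 and Map2), all 6 excitatory markers and all 5 GABAergic markers was called in all 12 libraries. Among markers of other cells, 1 and the same promoter region was called in all 12 libraries for 4 of 5 astrocyte, 4 of 6 oligodendrocyte lineage, 0 of 5 microglial and 1 of 3 endothelial genes, and the microglial genes Cx3cr1, Aif1 and Itgam had none in any library. When any promoter region of a gene could count, all 5 astrocyte genes had a peak in every library. The mean percentile of the astrocyte list was 61.8 to 70.3 in PBS, 54.9 to 59.1 in PFF, 63.0 to 65.5 with MLi-2 and 60.1 to 61.1 with the ASO. It was lowest in PFF, but the genes of the list differed. The group means in PBS and PFF were 50.7 and 31.2 for Gfap and 41.8 and 14.4 for Aqp4, against 87.1 and 86.1 for Aldh1l1 and 79.7 and 81.4 for Aldoc. The GABAergic list spanned 57.9 to 58.6 in PBS and 52.5 to 57.8 in PFF, without overlap, with 3 of its 5 genes lower in PFF (Gad1 at 50.9 and 22.4, Dlx1 at 71.7 and 68.0, Dlx2 at 67.7 and 62.3) and Gad2 (52.0 and 54.0) and Slc32a1 (49.3 and 55.9) higher. The excitatory list spanned 54.0 to 60.5 in PBS and 47.5 to 55.6 in PFF, and these ranges overlapped. The part of these values in the results was not tested. In a mixed culture, fewer cells with an open region and less opening per cell cannot be told apart.

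Every one of the 36 channel genes had at least 1 promoter region, defined as lying within 1 kb of a start site, with a peak in all 12 libraries. Among the 21924 distinct symbols of protein-coding genes in the annotation this was so for 13765 (62.8%). Peak height was compared as a percentile, the rank of a peak's fold over local background among all peaks of the same library, with 100 the highest. Only promoter regions with a peak in all 12 libraries entered the next comparison, so coding genes without one are left out. By the highest such region of each gene, the median over the 36 channel genes was 78.8. Over the 13765 coding genes it was 92.4, with 6 channel genes above that median and 30 below it. The highest promoters of the channel genes were thus mostly lower in rank than those of these 13765 genes. Of all 160 channel gene promoter regions, 74 had a peak in all 12 libraries (46.2%, against 49.9% of coding promoters). A start site here is that of any annotated transcript. At 23 of the 36 genes the highest promoter lay within 1 kb of the gene's outermost 5′ end, and at the other 13 it lay at an internal start site. Of these 13 genes 7 also had a promoter region at the outermost 5′ end in all 12 libraries.

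**Figure D1:**
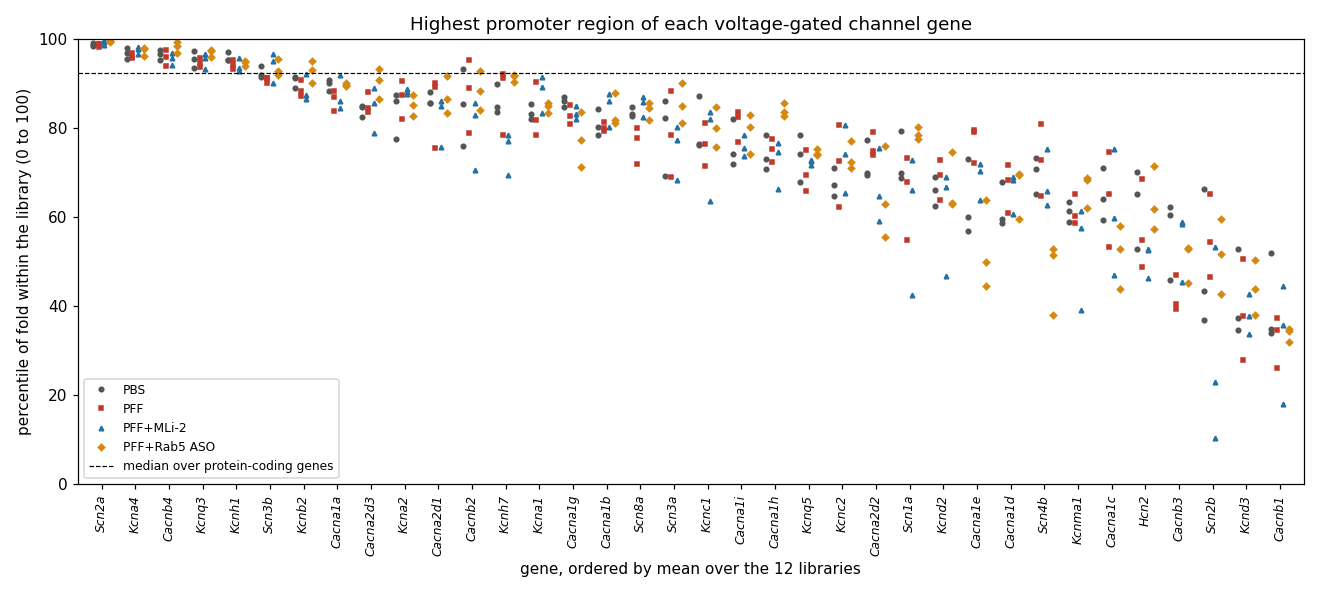
Percentile of fold (vertical axis, 0 to 100) of the highest promoter region of each of the 36 channel genes (horizontal axis, ordered by the mean over 12 libraries), with 1 point per library. The dashed line is the median over protein-coding genes with a promoter region in all 12 libraries. Scn2a sits at 98.1 to 99.7 in every library, and Cacnb1, the lowest, at 17.9 to 51.9.

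Among the sodium channel alpha genes, Scn2a, which encodes a pore subunit of the axon initial segment, had the highest promoter of all 36 genes (chr2:65668421-65668947). It lay at a start site 47.6 kb inside the gene, and the region at the outermost 5′ end (chr2:65620606-65620864) had a mean of 63.9. Its percentile was 99.1, 98.6 and 98.5 in PBS, 98.8, 98.8 and 98.1 in PFF, 99.3, 98.7 and 99.7 with MLi-2, and 99.5, 99.2 and 99.6 with the ASO. The mean pileup at its summit was 54.0 fragments. Percentile ranks fold over local background, and by pileup some other promoters, such as that of Kcnq3 (65.6), were higher. The lowest promoter region of these genes present in every library was a further region of Scn8a (chr15:100871682-100871861), at 43.9, 34.0 and 58.7 in PBS, 11.7, 29.6 and 27.8 in PFF, 23.8, 24.0 and 8.96 with MLi-2, and 21.3, 51.2 and 45.5 with the ASO. The PFF and PFF+MLi-2 libraries lay below the PBS libraries there, while PFF+Rab5 ASO overlapped all of them. Between PFF and PBS the region did not pass the limma test described with the comparisons. The highest promoter regions of Scn8a, Scn3a and Scn1a had means over the 12 libraries of 82.3, 79.6 and 69.3. Scn1a and Scn3a had no gained or lost region in any of the 3 comparisons.

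Among the sodium channel beta genes, Scn3b had the highest promoter (chr9:40268864-40269819), with 90.0 to 96.6 over the 12 libraries. Scn2b had the lowest (chr9:45117752-45117911), with a mean of 46.1. It was also the most variable of the highest promoters, with an SD of 16.6 over libraries and values of 36.8, 43.3 and 66.3 in PBS, 65.1, 46.6 and 54.3 in PFF, 53.2, 10.3 and 23.0 with MLi-2, and 42.8, 51.7 and 59.6 with the ASO. All 4 groups overlapped. The Scn4b promoter (chr9:45138558-45138909) was at 72.8, 64.8 and 80.9 in PFF and at 51.4, 52.7 and 38.0 in PFF+Rab5 ASO. The groups did not overlap, but the difference did not pass the limma test described with the comparisons (effect -0.88, adjusted p = 0.0758).

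Among the calcium channel alpha1 genes, Cacna1a, the P/Q-type pore of presynaptic terminals, had the highest promoter (chr8:84639123-84639761), with a mean of 88.3 and a range of 83.7 to 91.9. That region is the window of an internal start site 251 kb from the gene's 5′ end, where no region was called in all 12 libraries. The gene is 252 kb long, so this start site lies near its 3′ end. The highest promoters of Cacna1e, Cacna1d and Cacna1c were internal as well, at 67.3, 139 and 116 kb. The N-type pore gene Cacna1b followed at 82.4 and was matched by the T-type gene Cacna1g at 82.4. The other T-type genes, Cacna1i and Cacna1h, were at 78.0 and 76.4. The R-type gene Cacna1e and the L-type genes Cacna1d and Cacna1c were lower, at 65.4, 65.3 and 60.4. The SD over libraries was 2.54 to 11.0 for these genes. The lowest promoter region in all 12 libraries was also in Cacna1c (chr6:119107334-119107576), at 0.651 to 7.46.

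Among the accessory calcium channel genes, Cacnb4 had the highest promoter (chr2:52558470-52558808), with 93.9 to 99.3, and Cacnb1 the lowest of the highest promoters of all 36 genes, with a mean of 34.8. The Cacnb4 region lay 118 kb inside the gene, and the one at its 5′ end was at 88.4. Percentile is a rank of fold over local background, and Cacnb1 had 4 promoter regions in all 12 libraries; the mean pileup at the summit of the highest one was 37.9 fragments. Its lowest promoter region (chr11:98021899-98022141) had a mean of 6.17. Cacnb2 and Cacnb3 were at 85.1 and 50.7. Of the alpha2delta genes, Cacna2d3 (chr14:29721532-29722435) was at 86.0, Cacna2d1 at 85.2 and Cacna2d2 at 69.8. The values of Cacnb2 and Cacna2d2 came from internal start sites, 136 and 127 kb from the 5′ end, where regions were at 83.2 and 69.2. That of Cacna2d2, a gene of 130 kb, lies near the 3′ end. A further region of Cacna2d1 (chr5:15935061-15935288) was the lowest alpha2delta promoter, with 39.8.

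Among the potassium channel genes, Kcna4, which encodes a rapidly inactivating A-type subunit, had the highest promoter, with a mean of 96.9 and a range of 95.5 to 98.2. The M-current gene Kcnq3 and the ether-a-go-go gene Kcnh1 followed at 95.5 and 94.7. Kcnb2, Kcna2, Kcnh7 and Kcna1 were at 90.2, 85.9, 84.9 and 84.9. The genes for fast delayed rectifiers, Kcnc1 and Kcnc2, were at 78.1 and 71.6, Kcnq5 at 72.6, Kcnd2 at 65.5 and Kcnma1, a channel opened by calcium and voltage, at 60.4. Kcnd3 had the lowest of these highest promoters, with 40.6. Those of Kcnc1 and Kcnma1 were internal, 25.8 and 9.26 kb from the 5′ end, and at the 5′ end of Kcnc1 the value was 59.6. A further Kcnq5 promoter region (chr1:21960689-21960855) was the lowest in all 12 libraries, with a mean of 17.9. The Hcn2 promoters had means of 58.6 (chr10:79716458-79716734) and 17.6 (chr10:79717121-79717486).

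Most regions of the channel genes lay away from promoters. Introns held 1245 of the 1485 regions (83.8%), promoters 160, exons 59 and upstream sequence 21. A peak in all 12 libraries was found for 74 of the promoter regions (46.2%, against 49.9% for all protein-coding genes) and for 244 of the intron regions (19.6%, against 22.5%). Over all classes 341 regions (23.0%) were present in all 12 libraries and 423 (28.5%) in 1 library, against 29.7% and 25.8% for protein-coding genes. The number of regions per gene ran from 2 at Kcna4 to 156 at Kcnma1, with 135 at Cacna1c and 126 at Cacna2d3. Per 100 kb of gene and upstream sequence, Kcna1 (54.6), Scn2b (46.3), Scn4b (38.5), Cacnb1 (37.7) and Cacnb3 (37.5) had the most regions, all of them genes of 5.99 to 21.5 kb. Kcnd2 (7.12), Kcnc2 (8.46), Scn3a (8.66), Kcnh7 (10.1) and Kcnq5 (10.4) had the fewest.

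By family, the share of regions present in all 12 libraries was 33.3% for sodium channel beta genes (7 of 21) and for Hcn2 (3 of 9), 29.5% for calcium channel beta (38 of 129), 26.0% for alpha1 (115 of 442), 21.3% for sodium channel alpha (20 of 94), 21.0% for alpha2delta (46 of 219) and 19.6% for potassium channels (112 of 571).

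Per library, 811, 591 and 667 channel gene regions had a peak in PBS, 815, 787 and 677 in PFF, 624, 616 and 636 with MLi-2, and 844, 770 and 757 with the ASO. The PFF+MLi-2 libraries were below every PFF and every PFF+Rab5 ASO library, while PBS spanned nearly the whole range. The group means were 690 ± 112 in PBS, 760 ± 72.9 in PFF, 625 ± 10.1 with MLi-2 and 790 ± 46.9 with the ASO (SD, n = 3). These counts moved with the number of regions called in each library, and as a share of all called regions the means were 0.521% ± 0.00513, 0.541% ± 0.0150, 0.510% ± 0.0125 and 0.555% ± 0.0165 (SD, n = 3). The lowest PFF+Rab5 ASO share (0.545%) was above the highest PBS (0.527%) and PFF+MLi-2 (0.523%) shares and below the highest PFF share (0.551%). With 3 against 3 libraries, an exact permutation test cannot give a two-sided p below 0.1, so no test of these counts was made.

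**Figure D2:**
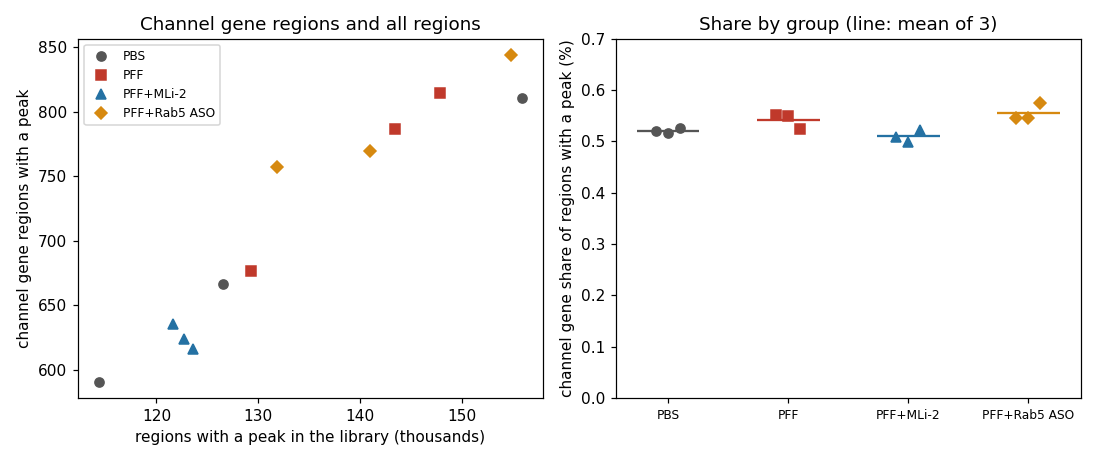
Left, channel gene regions with a peak (vertical axis, count) against all regions with a peak (horizontal axis, in units of 1000), 1 point per library. Right, the channel gene share of called regions (percent) by group, with the mean of 3 as a line. The counts run from 591 to 844 and follow the library totals, while the shares stay between 0.498% and 0.574%.

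Potassium channel genes, the family with the most regions (571 of 1485), had the widest range of group means. They had 248 ± 50.3 called regions in PBS, 276 ± 32.4 in PFF, 217 ± 2.31 with MLi-2 and 301 ± 20.6 with the ASO (SD, n = 3). Calcium channel alpha1 genes had 214 ± 31.6, 240 ± 22.5, 202 ± 10.2 and 226 ± 9.87 in the same order, and alpha2delta genes 98.7 ± 9.61, 105 ± 10.8, 91.3 ± 3.06 and 120 ± 11.0. Calcium channel beta genes had 67.7 ± 9.71, 71.3 ± 6.03, 60.7 ± 7.23 and 78.0 ± 1.00, and sodium channel alpha genes 45.7 ± 8.74, 47.3 ± 1.15, 39.0 ± 2.00 and 48.7 ± 7.09. Sodium channel beta genes had 9.67 ± 2.08, 13.7 ± 1.15, 10.0 ± 1.00 and 12 ± 1.73, and Hcn2 5.33 ± 1.53, 6.67 ± 0.577, 4.67 ± 0.577 and 4.33 ± 1.53. The 5 larger families had their lowest mean in PFF+MLi-2, as the library totals did, and of these all but alpha1 had their highest in PFF+Rab5 ASO. The number of channel gene promoters called was 99.7 ± 9.07 in PBS, 112 ± 5.51 in PFF, 100 ± 5.29 with MLi-2 and 106 ± 3.06 with the ASO. Their median percentile was 66.0 ± 1.11, 67.7 ± 2.56, 63.1 ± 2.83 and 65.8 ± 1.56, and that of all coding promoters was 85.5, 85.0, 84.8 and 86.7. At introns the medians of channel genes (73.0, 74.1, 70.8 and 74.3) were near those of all coding genes (71.6, 73.4, 69.6 and 72.9).

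Groups were compared by peak calls and by peak height. A region was called gained when it had a peak in 3 of 3 libraries of the first group and 0 of 3 of the second, and lost in the reverse case, with no test. Where every one of the 12 libraries had a peak, the rank of fold within each library was turned into a normal score, in SD units, and compared with limma, with Benjamini-Hochberg adjustment over all 72465 such regions and an adjusted p under 0.05 as the threshold. Of these, 341 were at channel genes.

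Exposure to fibrils was compared with vehicle first. Of 1195 channel gene regions with a peak in either group, 15 were gained in PFF (1.26%, against 1.10% of all regions) and 1 was lost (0.0837%, against 0.405%). Without PBS replicate 2 the lost regions were 16 (1.36%, against 1.61%). Leaving out 1 library at a time gave 19 to 39 gained, the most without PFF replicate 3 (3.37%, against 2.58%), and the gained share fell below that of the series without PBS replicate 1 (2.89%, against 3.01%). The gained regions lay at 12 genes, 14 in introns (1.42%, against 1.23% of coding introns) and 1 upstream of Cacna2d3 (5.56% of 18, against 1.22%), and 0 of 147 promoter regions were gained or lost (0.701% and 0.183% of coding promoters). Cacna2d3, whose product supports calcium channel trafficking, held 4 of the 15 and 126 of all 1485 regions. Its upstream region (chr14:29722866-29723083) lay 1002 bp from a start site, just outside the promoter window, and was at 1.72, 1.44 and 1.81 in PFF. Over all classes the gained and lost shares are small, and the gained share is close to that of the series. With only the top 137417 peaks of each library 9 were gained (0.896%, against 1.02%) and 5 lost (0.498%, against 0.603%), so the gained share then lay below that of the series.

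The gained region with the highest percentile was in an intron of Cacnb2 (chr2:14652894-14653031). It was at 30.0, 70.8 and 68.2 in PFF, had no peak in PBS, was at 48.4 and 31.7 in 2 of the PFF+MLi-2 libraries, and was at 39.4, 48.3 and 41.7 in PFF+Rab5 ASO. The pileup in PFF was 11, 17 and 16 fragments, near the median of 16 to 18 over all peaks. In Kcnq3 (chr15:66272832-66273053) the PFF values were 46.8, 72.0 and 29.3, with peaks in 2 PFF+MLi-2 libraries (3.66 and 23.4) and in all PFF+Rab5 ASO libraries (25.9, 45.2 and 24.7). In Kcnh7 (chr2:63136843-63136977) they were 61.3, 42.0 and 43.4, with peaks at 31.7 in 1 PFF+MLi-2 library and at 65.6 and 19.2 in 2 PFF+Rab5 ASO libraries. In Kcnb2 (chr1:15539132-15539340) they were 40.4, 42.0 and 51.5, with peaks at 31.7 in 1 PFF+MLi-2 library and at 28.3 and 31.0 in 2 PFF+Rab5 ASO libraries. The Kcnd3 region (chr3:105621246-105621432), in a gene for an A-type channel, was at 33.0, 52.1 and 37.1 in PFF and at 20.4 and 8.61 in 2 PFF+MLi-2 libraries, and had no peak in PBS or PFF+Rab5 ASO. These are thus peaks of middle rank rather than strong ones. Over all 15, the median percentile in PFF was 33.0, against 31.5 for all regions gained in the series, and 7 lay within 200 bp of another region (46.7%, against 30.6%).

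In the PFF+MLi-2 libraries, 4 of the 15 gained regions were called in 2 or 3 libraries (26.7%, against 22.0% of all regions gained in PFF). In PFF+Rab5 ASO, 11 of the 15 were called in 2 or 3 libraries (against 34.6%) and 1, the Kcnd3 region, had none. The peak totals of these groups differ in the same direction, and their part in this was not tested.

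The single lost region was in an intron of Cacna1a (chr8:84460831-84461006). It was at 44.8, 34.6 and 33.6 in PBS with 17, 15 and 15 fragments, had no peak in any PFF library, and was at 22.8, 23.6 and 23.2 in PFF+MLi-2 with 15, 14 and 16 fragments. In PFF+Rab5 ASO it had a peak in 1 library, at 23.4. The region was thus called in every library of PBS and PFF+MLi-2.

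In height rank, 0 of 341 channel gene regions passed the limma test between PFF and PBS, as did 0% of all 72465 regions. At an unadjusted p under 0.05 there were 37 (10.9%, against 9.72% of all regions). Percentiles of PFF lay above PBS without overlap at 23 regions (6.74%, against 8.25%) and below at 21 (6.16%, against 6.38%). The smallest p belonged to an intron of Cacna2d1 (chr5:15985987-15986317), at 78.8, 62.0 and 67.7 in PBS and 30.0, 42.0 and 12.2 in PFF (effect -1.42 ± 0.246 SE, limma adjusted p = 0.217). Next was the lower Kcnq5 promoter (chr1:21960689-21960855), at 6.89, 5.43 and 5.20 in PBS and 34.5, 35.7 and 40.1 in PFF (effect 0.89 ± 0.208 SE, limma adjusted p = 0.246). It was followed by an intron of Cacna2d3 (chr14:29191466-29191793), at 48.0, 29.9 and 41.0 in PBS and 82.1, 66.8 and 63.5 in PFF (effect 1.04 ± 0.244 SE, limma adjusted p = 0.246). None of the 3 overlapped between the groups, and none passed.

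**Figure D3:**
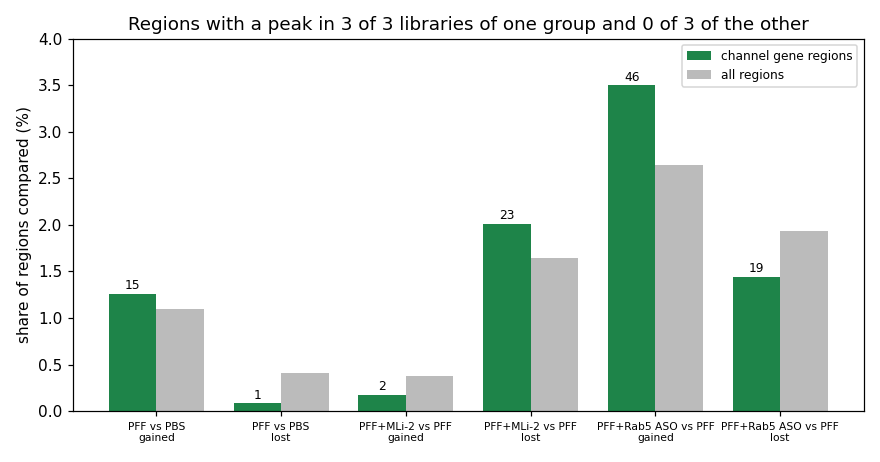
Share of compared regions (vertical axis, percent) gained or lost in each of the 3 comparisons, for channel gene regions (green, with the number of regions above the bar) and all regions (grey). The channel gene share is 3.50% against 2.64% for regions gained in PFF+Rab5 ASO, and 1.44% against 1.94% for regions lost there.

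The effect of the LRRK2 inhibitor was compared within fibril-exposed neurons. Of 1143 regions, 2 were gained in PFF+MLi-2 (0.175%, against 0.374% of all regions) and 23 were lost (2.01%, against 1.64%). Leaving out 1 library at a time gave 4 to 9 gained and 34 to 57 lost. The gained share rose above that of the series without PFF replicate 2 (0.844%, against 0.683%), and the most lost regions came without PFF replicate 3 (5.19%, against 3.72%). The lost regions lay at 14 genes, 20 in introns (2.15%, against 1.93% of coding introns), 1 in an exon of Cacna1a (2.33% of 43, against 1.85%) and 2 upstream of Scn2a and Cacna2d3 (10.0% of 20, against 1.65%). Cacna2d3, Cacnb2 and Kcnma1, with 126, 45 and 156 regions, had 3 each. Scn8a, Cacna2d1 and Kcnb2, with 42, 59 and 49 regions, had 2 each. No promoter region of 148 was gained or lost (0.166% and 1.10% of coding promoters). The lost upstream region of Cacna2d3, also gained in PFF, lay 1002 bp from a start site, just outside the promoter window. With equal numbers of top peaks 6 regions were lost, a share below that of the series (0.607%, against 1.07%). The PFF+MLi-2 lists were the shorter ones (145497 to 147991 peaks against 151900 to 172377 in PFF).

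The lost region with the highest percentile was the Kcnma1 intron printed above (chr14:23684506-23684780). It was at 51.1, 60.9 and 48.3 in PFF with 17, 19 and 15 fragments, at 34.9 and 11.6 in 2 PBS libraries, and had no peak in PFF+MLi-2 or PFF+Rab5 ASO. In Cacnb4 (chr2:52605407-52605572) the PFF values were 82.8, 37.9 and 36.2, and the region had a peak in all PFF+Rab5 ASO libraries (43.8, 52.9 and 37.6) and at 62.5 and 64.7 in 2 PBS libraries. In Cacna2d1 (chr5:16253817-16254041) the PFF values were 48.8, 32.2 and 58.0, and those in PFF+Rab5 ASO were 73.3, 28.3 and 63.3, with 2 PBS libraries at 17.9 and 29.9. Both accessory subunit regions were therefore missing in PFF+MLi-2 and present in all 6 libraries of the other fibril groups. In the delayed rectifier gene Kcnb2, a region (chr1:15565667-15565858) was at 48.8, 21.1 and 51.5 in PFF, at 13.0 in 1 PBS library and at 48.3 in 1 PFF+Rab5 ASO library. Another Kcnb2 region (chr1:15651878-15652023) was at 43.7, 39.0 and 30.2 in PFF, at 33.7, 24.3 and 37.8 in PBS and at 6.62 and 31.0 in 2 PFF+Rab5 ASO libraries. Over the 23 regions the median percentile in PFF was 25.6, below the 32.3 of all lost regions, and 11 had a peak in at least 2 PBS libraries (47.8%, against 34.0%). A further region lay within 200 bp of 11 of them (47.8%, against 30.6%).

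The 2 gained regions were the Cacna1a intron that had no peak in PFF, with its values given above, and an intron of Kcnh1 (chr1:192343233-192343402). The Kcnh1 region was at 5.37, 20.2 and 27.0 in PFF+MLi-2, had no peak in PFF, was at 24.7 in 1 PBS library, and was at 15.5, 57.1 and 48.3 in PFF+Rab5 ASO, where it also counted as gained.

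In height rank, 0 of 341 channel gene regions passed the limma test between PFF+MLi-2 and PFF, as did 0% of all regions, and 39 had an unadjusted p under 0.05 (11.4%, the same share as over all regions). Percentiles of PFF+MLi-2 lay above PFF without overlap at 11 regions (3.23%, against 5.23%) and below at 44 (12.9%, against 12.9%). The smallest p was in an intron of Cacnb4 (chr2:52580741-52581051), at 36.1, 37.4 and 29.4 in PFF and 68.0, 74.9 and 64.3 in PFF+MLi-2 (effect 1.28 ± 0.195 SE, limma adjusted p = 0.152). A Kcnb2 exon (chr1:15710286-15710645) was at 66.0, 74.3 and 75.7 in PFF and 10.7, 16.8 and 41.5 in PFF+MLi-2 (effect -1.43 ± 0.287 SE, limma adjusted p = 0.195). A Cacna1d intron (chr14:30208322-30208498) was at 90.5, 88.4 and 85.1 in PFF and 67.5, 69.0 and 59.4 in PFF+MLi-2 (effect -0.97 ± 0.196 SE, limma adjusted p = 0.195). The groups did not overlap at these regions, and none passed the threshold.

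**Figure D4:**
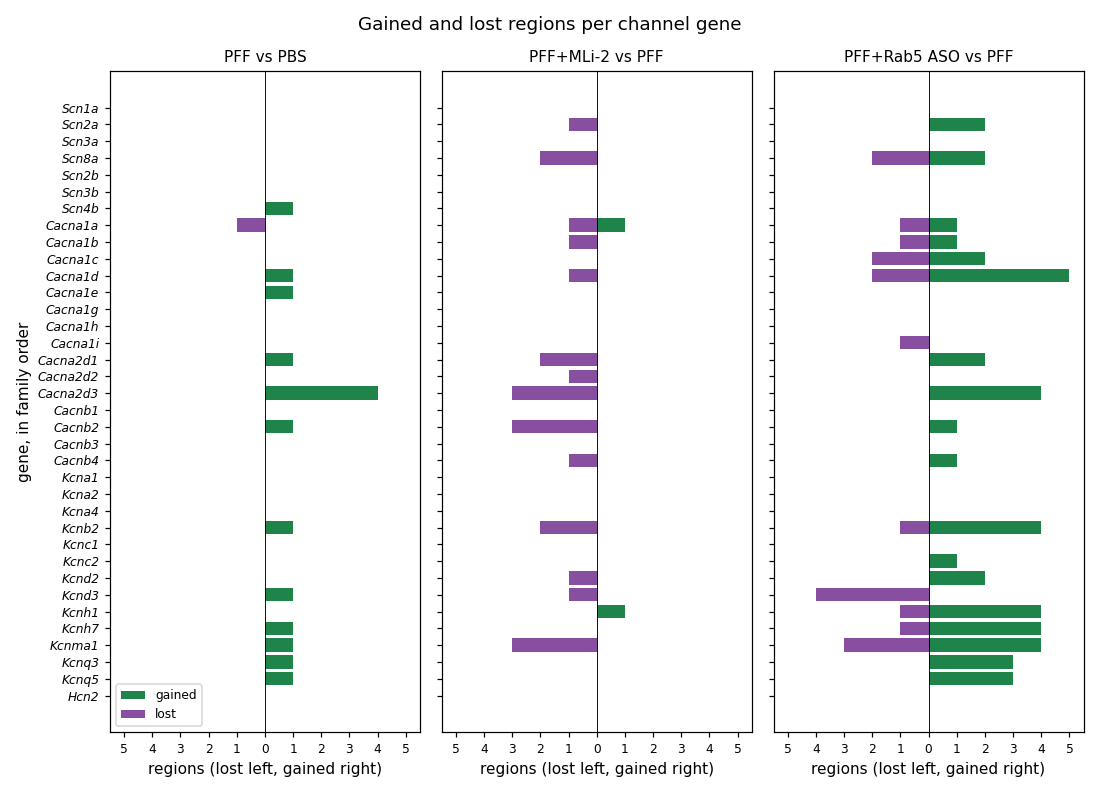
Number of gained (green, to the right) and lost (purple, to the left) regions at each of the 36 channel genes (vertical axis, by family), with 1 panel per comparison. PFF+Rab5 ASO against PFF has the most calls, with 5 regions gained at Cacna1d and 4 lost at Kcnd3. The counts are not scaled to the number of regions at a gene.

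Lowering Rab5 was likewise compared within fibril-exposed neurons, against the same PFF libraries as for MLi-2. Of 1316 regions, 46 were gained in PFF+Rab5 ASO (3.50%, against 2.64% of all regions) and 19 were lost (1.44%, against 1.94%). Leaving out 1 library at a time gave 58 to 67 gained and 23 to 44 lost, the most lost without PFF replicate 3 (3.43%, against 3.73%). The gained regions lay at 18 genes, 42 in introns (3.84%, against 2.65% of coding introns) and 4 in exons (7.84% of 51, against 1.72% of coding exons). Cacna1d, an L-type pore gene with 73 regions, had 5. Cacna2d3, Kcnb2, Kcnh1, Kcnh7 and Kcnma1, with 126, 49, 76, 50 and 156 regions, had 4 each. Potassium channel genes held 25 of the 46 gained and 571 of all 1485 regions, and alpha1 genes 9 and 442. Alpha2delta genes held 6 and 219, sodium channel alpha genes 4 and 94, and calcium channel beta genes 2 and 129. The lost regions lay at 11 genes, with 4 at Kcnd3 (57 regions) and 3 at Kcnma1, and potassium channel genes held 10 of the 19. Over the 3 comparisons no region was gained or lost at 13 of the 36 genes, namely Scn1a, Scn3a, Scn2b, Scn3b, Cacna1g, Cacna1h, Cacnb1, Cacnb3, Kcna1, Kcna2, Kcna4, Kcnc1 and Hcn2. Of 151 promoter regions 0 were gained and 1 was lost (0.616% and 1.15% of coding promoters).

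The gained region with the highest percentile was in an intron of Kcnq5 (chr1:21684600-21684890). It was at 76.4, 66.1 and 72.3 in PFF+Rab5 ASO with 20, 16 and 18 fragments, had no peak in PFF, was at 29.3 in 1 PBS library, and was at 19.8 and 16.8 in 2 PFF+MLi-2 libraries. An intron of Cacna1d (chr14:30139784-30139934) was at 59.1, 59.8 and 79.6 with 23, 21 and 29 fragments and had no peak in any of the other 9 libraries. The Scn2a intron printed above (chr2:65700748-65700877) was at 73.3, 55.4 and 41.7 with 19, 14 and 13 fragments, and at 17.9 and 17.7 in 2 PBS libraries. Another Kcnq5 intron (chr1:21901683-21901797), at 69.7, 48.3 and 50.4, was present in PFF+Rab5 ASO alone. In Cacna1c (chr6:118988821-118988979) the values were 42.0, 60.0 and 65.6, with 1 PFF+MLi-2 library at 16.8. Over the 46 regions the median percentile was 43.0, against 42.2 for all gained regions, and 8 had a peak in at least 2 PBS libraries (17.4%, against 14.3%). Their median GC content was 39.1%, against 40.8%, and 13 lay within 200 bp of another region (28.3%, against 31.4%).

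The lost region with the highest percentile was in an intron of Kcnh7 (chr2:63080215-63080479), at 70.2, 62.1 and 43.4 in PFF, 29.9 and 17.7 in 2 PBS libraries and 7.12 and 62.2 in 2 PFF+MLi-2 libraries. The Kcnma1 intron at chr14:23684506-23684780 was next. Another Kcnma1 intron (chr14:23666491-23666768) was at 74.4, 59.3 and 10.7 in PFF, 60.4 in 1 PBS library and 13.3 and 28.7 in 2 PFF+MLi-2 libraries. The Kcnd3 intron at chr3:105621246-105621432, which had no peak in PBS, was also without one in PFF+Rab5 ASO. In Cacna1d (chr14:30148055-30148281) the PFF values were 51.2, 28.3 and 31.0, with peaks at 38.5 in 1 PBS library and at 16.4 and 39.6 in 2 PFF+MLi-2 libraries. The lost promoter region belonged to an internal start site of Cacna1c (chr6:119078941-119079182), at 45.0, 7.91 and 27.4 in PFF with 16, 11 and 13 fragments. It had a peak in 2 PBS libraries (23.1 and 20.7) and 1 PFF+MLi-2 library (45.9). Of the 19 lost regions 10 had a peak in at least 2 PBS libraries (52.6%, against 47.9%), and 5 lay within 200 bp of another region (26.3%, against 23.7%).

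In height rank, 17 of 341 channel gene regions passed the limma test between PFF+Rab5 ASO and PFF (4.99%, against 3.83% of all regions), 9 higher and 8 lower. Over all 72465 regions, 1.97% were higher and 1.86% lower. At an unadjusted p under 0.05 there were 79 (23.2%, against 21.1%). Percentiles lay above PFF without overlap at 60 regions (17.6%, against 13.9%) and below at 43 (12.6%, against 11.9%). Of the 17 regions 16 were introns and 1 was a promoter of Cacnb1. Potassium channel genes had 6 higher and 4 lower of 112 tested, and alpha1 genes 2 higher and 3 lower of 115. Calcium channel beta genes had 1 higher of 38, and alpha2delta genes 1 lower of 46. The count rested on every library, since leaving out 1 at a time gave 0 without PFF+Rab5 ASO replicate 1, 2 without replicate 3, 6 without replicate 2, 4 without PFF replicate 2 or 3 and 5 without PFF replicate 1. Without PFF+Rab5 ASO replicate 1, no region of the whole series passed either, and 68 channel gene regions had an unadjusted p under 0.05. Fewer than 17 also passed in limma with a replicate block, with the count given at the end. PFF+Rab5 ASO libraries had greater depth and narrower peaks than PFF libraries, and the part of this in the result was not tested.

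The largest rise was at the Kcnh1 intron printed above (chr1:192439512-192439725). It was at 23.7, 14.8 and 5.35 in PFF with 11 to 14 fragments, and at 62.6, 75.8 and 74.2 in PFF+Rab5 ASO with 23 to 24 fragments. In limma the effect was 1.80 ± 0.248 SE and the adjusted p 0.0152. The PBS libraries spanned both groups, at 68.4, 10.6 and 35.5. The region passed in 5 of the 6 fits that leave out 1 library. A gained Kcnh1 region (chr1:192439372-192439491) lay 20 bp beside it.

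An intron of Kcnh7 (chr2:63117241-63117625), a gene for an ether-a-go-go related channel, was at 40.4, 66.8 and 58.0 in PFF and 89.3, 84.5 and 92.4 in PFF+Rab5 ASO (effect 1.50 ± 0.277 SE, limma adjusted p = 0.0254). An intron of Kcnma1 (chr14:23290677-23291016) was at 55.6, 62.1 and 68.2 in PFF and 89.3, 89.8 and 95.3 in PFF+Rab5 ASO (effect 1.49 ± 0.250 SE, limma adjusted p = 0.0210), and in both genes the 3 PFF+Rab5 ASO libraries were above the other 9. Another Kcnma1 intron (chr14:23902618-23902858) was at 35.6, 27.3 and 37.2 against 74.7, 78.0 and 60.3 (effect 1.25 ± 0.225 SE, limma adjusted p = 0.0240). An intron of Cacna1e (chr1:154770648-154770845) was at 66.0, 70.8 and 51.5 against 92.0, 82.3 and 91.1 (effect 1.23 ± 0.243 SE, limma adjusted p = 0.0306). At both, too, the 3 PFF+Rab5 ASO libraries were above the other 9. Of the 6 fits that leave out 1 library, the Kcnh7 region passed 1, the first Kcnma1 region 2, the other Kcnma1 region 1 and the Cacna1e region 1. With a replicate block the Cacna1e region did not pass (limma adjusted p = 0.0550).

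The largest fall was in an intron of the M-current gene Kcnq3 (chr15:66115210-66115541), at 91.0, 88.4 and 81.5 in PFF and 65.6, 55.4 and 31.0 in PFF+Rab5 ASO (effect -1.51 ± 0.254 SE, limma adjusted p = 0.0212). An intron of Kcnd3 (chr3:105654050-105654328) was at 87.2, 89.2 and 91.7 against 67.6, 48.3 and 68.2 (effect -1.33 ± 0.242 SE, limma adjusted p = 0.0245). An intron of Cacna1a (chr8:84529588-84529922) was at 90.3, 83.8 and 91.2 against 73.3, 61.2 and 50.4 (effect -1.25 ± 0.239 SE, limma adjusted p = 0.0278). At these genes every PFF library lay above every PFF+Rab5 ASO library. A different Kcnma1 intron (chr14:23651802-23652225) was at 75.5, 62.1 and 75.7 against 39.4, 39.3 and 19.2 (effect -1.22 ± 0.238 SE, limma adjusted p = 0.0300), so that Kcnma1 held regions of both directions. An intron of Cacna2d3 (chr14:29071005-29071189) was at 58.8, 64.7 and 60.2 in PFF, 66.9, 58.6 and 52.9 in PBS and 70.2, 58.3 and 54.9 with MLi-2, and at 14.8, 12.8 and 21.8 in PFF+Rab5 ASO (effect -1.21 ± 0.201 SE, limma adjusted p = 0.0205). The 3 PFF+Rab5 ASO libraries were thus apart from the other 9. Each of these 5 lower regions passed in 1 of the 6 fits that leave out 1 library, and with a replicate block the Kcnma1 region did not pass (limma adjusted p = 0.0528).

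The Cacnb1 promoter region that passed (chr11:98018934-98019142), at an internal start site 3892 bp from the gene's 5′ end, was at 1.88, 1.83 and 2.89 in PFF with 28 to 29 fragments, and at 12.3, 20.3 and 15.0 in PFF+Rab5 ASO with 32 to 35 fragments. In limma the effect was 0.86 ± 0.198 SE and the adjusted p 0.0458. The groups did not overlap in rank, and the mean relative depth was 0.843 in PFF and 1.22 in PFF+Rab5 ASO. The region did not pass without any 1 of the 6 libraries (adjusted p 0.0799 to 0.125), nor in limma with a replicate block (0.0697). The highest promoter region of none of the 36 genes passed. The nearest was that of Cacna1e, at 72.1, 79.0 and 79.6 in PFF and 49.8, 63.9 and 44.6 in PFF+Rab5 ASO (effect -0.91, limma adjusted p = 0.0628). The median effect over the 74 channel gene promoters was 0.15, against 0.07 over coding promoters, and over the 244 introns it was 0.01.

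**Figure D5:**
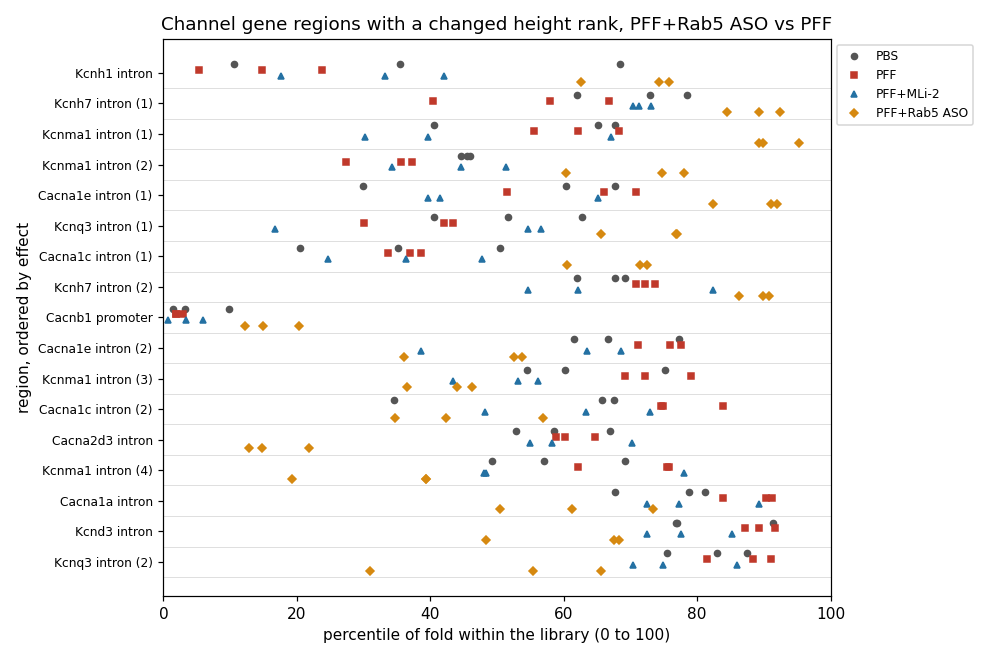
Percentile of fold (horizontal axis, 0 to 100) at the 17 channel gene regions that passed limma between PFF+Rab5 ASO and PFF (vertical axis, ordered by effect, numbered where a gene has several), with 1 point per library of all 4 groups. At every region the 3 PFF+Rab5 ASO points lie wholly on a single side of the 3 PFF points, from 23.7 or less to 62.6 or more at the Kcnh1 intron.

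Counts of 4 motifs were made within 100 bp of the centre of each region, on both strands. They were the E-box CACGTG, the AP-1 motif TGANTCA, the cyclic AMP response element TGACGTCA and TTCAGCACC, the left part of the RE1 element bound by REST, a repressor of neuronal genes including sodium channels. AP-1 was the most frequent, in 171 of the channel gene regions (11.5%, against 10.9% of 263562 regions on assembled chromosomes). It was found in 13.3% of channel gene introns (11.9% of coding introns) and in 1.88% of channel gene promoters (5.01% of coding promoters). The E-box was found in 3.16% of channel gene regions (3.43% of all regions). The response element was in 0.135% (0.337%) and the RE1 part in 0.404% (0.296%), and neither was in any of the 160 channel gene promoters (0.942% and 0.385% of coding promoters). No match of TGACGTCA contains a match of TGANTCA.

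Among the called regions, AP-1 was in 0 of the 15 gained in PFF (15.3% of all such regions) and in 4 of the 23 lost with MLi-2 (17.4%, against 14.0%). It was in 5 of the 46 gained with Rab5 ASO (10.9%, against 7.69%) and in 5 of the 19 lost (26.3%, against 25.3%). The Scn2a intron printed above and the Kcnh1 intron gained in both treated groups were among those with the motif, and so were the Kcnma1 intron at chr14:23666491-23666768 and the Cacna1d intron at chr14:30148055-30148281, both lost with Rab5 ASO. Of the regions that changed in height rank, 1 of 9 higher (11.1%, against 7.50%) and 2 of 8 lower (25.0%, against 26.4%) held it, the latter in Kcnma1 and Cacna1c. The E-box was in 0 of the 15 (5.53% of all such regions), 1 of the 23 (4.35%, against 5.27%), 2 of the 46 (4.35%, against 1.97%) and 0 of the 19 (4.32% of all such regions). A match of letters is a description and not a binding site.

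A further 57 genes for channels, channel subunits and channel-associated proteins outside the 36, such as the Kv channel-interacting genes Kcnip1 and Kcnip4, had 1024 regions. Of these genes, 46 had a promoter region in all 12 libraries and 7 had none in any (Cacna1f, Cacng7, Cacng8, Kcns1, Scn10a, Scn4a and Scn7a). Between PFF and PBS 11 of 856 regions were gained (1.29%) and 3 lost (0.350%). Between PFF+MLi-2 and PFF 4 of 805 were gained (0.497%) and 18 lost (2.24%). Between PFF+Rab5 ASO and PFF 26 of 905 were gained (2.87%) and 16 lost (1.77%). Of the 268 tested for height rank, 0, 0 and 12 passed limma in these comparisons, the 12 being 5 higher and 7 lower with Rab5 ASO. The 12 included 2 promoters, Kcnmb2, an accessory subunit of the Kcnma1 channel, which was higher (effect 0.96 ± 0.211 SE, limma adjusted p = 0.0404), and Cacna2d4, which was lower (effect -0.88 ± 0.200 SE, limma adjusted p = 0.0446).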

How the data were processed

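ATAC-seq of 12 libraries, 3 in each of 4 groups, was analysed from the peak lists. Per the labels and the study's methods, the authors trimmed paired reads (Trim Galore 0.6.7), mapped them to GRCm38 (Bowtie2 2.5.1) and called peaks in each library by itself, without pooling (MACS2 2.2.7.1). Options of the peak caller, duplicate handling and any shifting of read ends are not given in the sources used here, and no control library was named. The deposited lists give for each peak a fold ratio over local background, which served as height, and a −log10 p and −log10 q, which served for alternatives. The score column of the deposited lists was not used.

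Peaks were merged over libraries and assigned to genes with Python 3.11.15, pysam 0.24.0 and GENCODE vM21. A region took the highest peak in it as its value in a library. Regions were classed as promoter (within 1 kb of any start site of the gene), otherwise exon, otherwise intron, otherwise upstream. Fragment pileup was recovered from fold and p as the whole number that best gave the deposited −log10 p, which it did to within 0.002 for 100% of peaks. Relative depth was the most frequent background value divided by the smallest peak width, scaled to a mean of 1; total reads were not used. A fold or its rank says nothing of absolute accessibility, and a longer list holds more weak peaks. Height rank was tested with limma 3.58.1 in R 4.3.3 on the 6 libraries of a comparison, without covariates, after tests on simulated data; p-values measure the spread between these libraries.

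The 36 genes, the gene lists, motifs and the rule for named genes were chosen with earlier results of these data known. The rule named, for each comparison, up to 5 gained and 5 lost regions by mean percentile, up to 5 higher and 5 lower regions by effect or otherwise the 3 with the smallest p, the highest and lowest promoter of each family, and the 5 genes with the most and the fewest regions per 100 kb. Other regions and genes were named after their values were seen. Sequences were read from the RefSeq copy of GRCm38. The alternatives were a −log10 q of at least 3, equal numbers of top peaks (137417), an overlap of 50 bp, 1 kb upstream, calls from 2 of 3 libraries, ranks of −log10 p, a peak in all 6 libraries, a replicate block, and leaving out each library.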

Additional observations from a re-analysis of the deposited data

How the results depend on the processing

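Counts of channel gene regions changed with the strictness of the call, and for regions lost in PFF some stricter settings gave more. The share of channel gene regions changed side against the share of all regions in 6 instances. For PFF gained it fell below with equal numbers of top peaks (0.896%, against 1.02%), an overlap of 50 bp (0.860%, against 0.923%) and without PBS replicate 1 (2.89%, against 3.01%). For MLi-2 lost it fell below with equal numbers of top peaks (0.607%, against 1.07%). It rose above for MLi-2 gained without PFF replicate 2 (0.844%, against 0.683%) and for Rab5 ASO lost when 2 of 3 libraries sufficed (5.85%, against 5.69%). When 2 of 3 libraries sufficed for a call against 0 of 3 in the other group, 64 were gained (5.36%, against 4.32%) and 22 lost (1.84%, against 2.47%) in PFF, 17 gained (1.49%, against 1.84%) and 93 lost (8.14%, against 6.06%) with MLi-2, and 102 gained (7.75%, against 6.62%) and 77 lost with Rab5 ASO. With equal numbers of top peaks, 9 were gained and 5 lost in PFF, and 6 were lost with MLi-2. A −log10 q of at least 3 gave 2 lost in PFF (0.172%, against 0.368%), as did an overlap of 50 bp (0.143%, against 0.326%). The latter gave 1 gained with MLi-2 (0.0766%, against 0.318%). Leaving out 1 library at a time, which relaxes the call, gave 19 to 39 gained and 1 to 16 lost in PFF, 4 to 9 gained and 34 to 57 lost with MLi-2, and 58 to 67 gained and 23 to 44 lost with Rab5 ASO. The highest count came without PFF replicate 3 for PFF gained, MLi-2 lost and Rab5 ASO lost, and without PBS replicate 2 for PFF lost.

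The 17 regions with a changed height rank in PFF+Rab5 ASO became 0 to 6 when a library was left out, which also leaves fewer samples, and 21 when a peak in the 6 libraries compared was enough. Ranks of −log10 p, an overlap of 50 bp and the stricter q each gave 17. The Kcnh1 intron passed in 5 of 6 such fits (adjusted p 0.0372 to 0.0546), in limma with the block (0.0348) and with −log10 p ranks (0.0292). Deviations of libraries sharing a replicate number had correlations of 0.01 to 0.03, against -0.04 to 0.01 for other pairs. As every correlation was under 0.1, the numbers were not taken to pair them, although libraries may share a pregnancy. In limma with a replicate block 10 regions passed for PFF+Rab5 ASO and 0 in the other comparisons. The number of peaks per list and the few fragments behind a peak limit what a missing call shows.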
